A study of Mus musculus with 12 samples.

Results

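Collagens and other dermal matrix genes were followed through 4 sorted monocyte-macrophage fractions of allergic mouse skin. The set held every gene symbol of the collagen alpha chains (Col, a number, a, a number) together with Dcn, Lum, Bgn, Fbn1, Sparc, Fstl1, Thbs2, Serpinf1, Pcolce, Pdgfra, Lox, Eln, Postn and Fn1, where the raw counts of the 12 libraries summed to 50 or more. 54 genes met this rule, out of 58 candidates and 37775 gene symbols in all, and 40 of them were collagens. Just below the limit lay Col13a1 with 47 counts, Col6a4 with 39, Col24a1 with 38 and Col19a1 with 29, and just above it lay Col10a1 with 52, Col9a1 with 64 and Col28a1 with 86.

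The samples came from IgE-CAI, a model of IgE-dependent chronic skin allergy, in WT male BALB/c mice of 7 to 12 weeks. All mice received 300 μg of anti-TNP IgE intravenously and 10 μg of TNP-OVA in the skin of the right ear, and the ears were dissociated on day 5 after the challenge. Mo-Macs, gated by the study's methods as CD45+CD11b+F4/80+ cells negative for Siglec-F and Ly6G, were sorted by FACS into Ly6ChiPD-L2lo classical monocytes, Ly6ChiPD-L2hi early CMDMs (classical monocyte-derived macrophages), Ly6CloPD-L2hi late CMDMs and Ly6CloPD-L2lo resident-like macrophages. Each fraction had 3 libraries of polyA RNA from 5000 to 80000 sorted cells, and the labels do not say whether these came from separate mice, so that p-values measure the spread between the libraries only, which may be technical.

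Fibrillar collagens, chiefly types I, III and V, are secreted by fibroblasts and assemble into the fibers of the dermis, where small leucine-rich proteoglycans and fibril-associated collagens coat them. Type IV collagen forms the sheet of basement membranes under epidermis and around vessels. Epidermal keratinocytes are tied to that sheet by Col17a1, a transmembrane collagen of the hemidesmosome. Col7a1 forms the anchoring fibrils, which tie the sheet to the dermis below. Monocytes and macrophages are known chiefly for taking up and degrading collagen and, among matrix proteins, for making fibronectin.

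Total counts lay between 12537178 and 19844113 per library, at which 3 counts equal 0.151 to 0.239 CPM (counts scaled to a common library total), a limit that covers counting error only. Levels are given as CPM scaled by TMM (trimmed mean of M values, a correction of library size). Members took 0.599 to 0.969% of all counts in classical monocytes, 0.596 to 0.796% in early CMDMs, 0.147 to 0.168% in late CMDMs and 0.102 to 0.115% in resident-like macrophages. Macrophage markers were present in every fraction: the summed level of Csf1r, Adgre1, Cd68, Lyz2, Fcgr1 and Itgam ranged from 6072 to 8147 CPM in classical monocytes, from 2207 to 3143 in early CMDMs, from 5569 to 6512 in late CMDMs and from 8539 to 9608 in resident-like macrophages. Markers of cells outside the CD45+ gate were present too, and their values stand beside the results they move with. In bulk samples fewer cells of a type and less RNA per cell cannot be told apart.

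The members fell into a few shapes across the fractions, and both patterns counted here were chosen after seeing the data. In 29 of the 53 tested members both Ly6Chi fractions lay above both Ly6Clo fractions in all 4 comparisons (adjusted p under 0.05 in edgeR), against 2.42% of the 22118 genes tested. These were 6 of 10 fibrillar collagens, 4 of 5 beaded filament collagens, 5 of 8 basement membrane collagens, 1 of 8 fibril-associated collagens (Col14a1), Pdgfra, all 3 small leucine-rich proteoglycans, all 3 elastic fiber and cross-linking genes and all 6 matricellular and collagen-processing genes. In 3 of the 29, Col4a1, Col4a2 and Thbs2, early CMDMs were in addition above classical monocytes. In a further 6 of the 53 members, which did not meet the first pattern, early CMDMs were above each other fraction. That share is near the 10.9% of all tested genes, so this count does not set the members apart. The 6 were the epidermal junction collagens Col17a1 and Col7a1, the basement membrane collagens Col4a5, Col4a6 and Col18a1, and Col12a1. The remaining 18 tested members, among them Fn1 and Col16a1, had other patterns, and Col10a1 was too low to be tested.

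The mean level was highest in classical monocytes for 28 of the 53 members, in early CMDMs for 15, in late CMDMs for 7 and in resident-like macrophages for 3. A difference among the 4 fractions was found for 43 members, against 60.8% of all genes. By highest fraction, in the same order, these were 25, 14, 3 and 1 members. Scaling by 10 leukocyte genes in place of TMM gave 24 members in the first pattern and 18 in the second. The shares of all genes in these patterns under that scaling are not given here. That scaling set the median log2 fold change of all genes at 1.53 in early CMDMs against classical monocytes, -0.97 in late against early CMDMs and 0.54 in late CMDMs against classical monocytes.

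**Figure D1:**
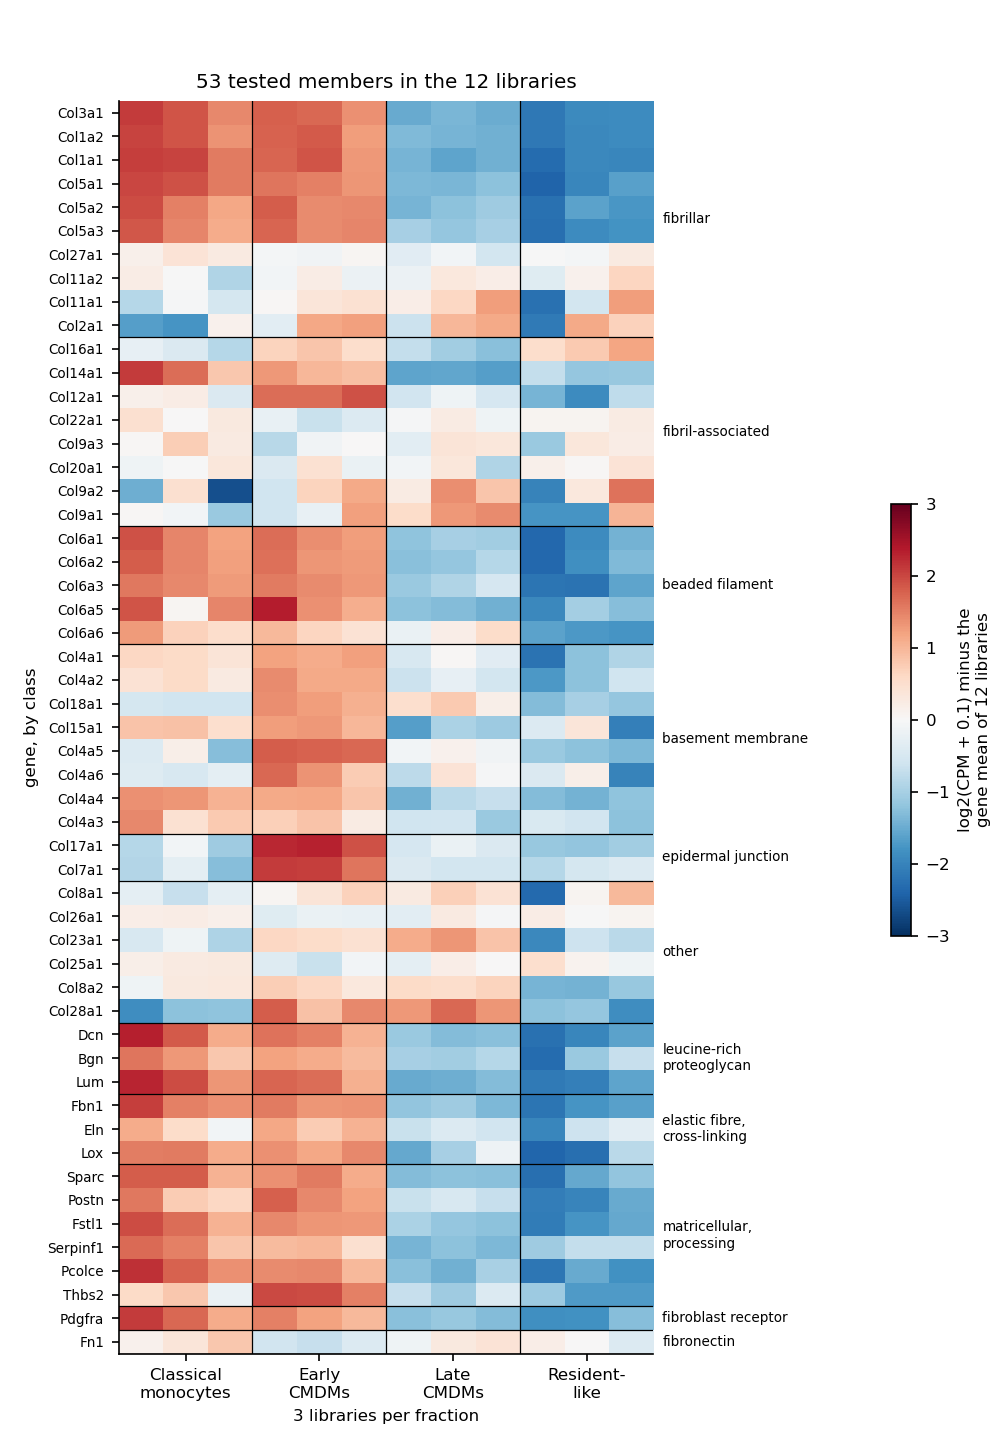
Each row is 1 of the 53 tested members, grouped by class, and each column 1 of the 12 libraries, 3 per fraction. Color gives log2(CPM + 0.1) minus the gene's mean over the 12 libraries, from blue (low) to red (high). Most dermal rows are red in the 6 Ly6Chi libraries and blue in the 6 Ly6Clo libraries, the Col17a1 and Col7a1 rows are red in the 3 early CMDM libraries, and the Fn1 row is pale blue in early CMDMs on the TMM scale, an order that leukocyte gene scaling reverses.

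The summed fibrillar level was 2634 to 4058 CPM in classical monocytes, 2430 to 3335 in early CMDMs, 371 to 374 in late CMDMs and 221 to 277 in resident-like macrophages. Col1a1 (chr11:94936224-94953042, plus strand, GRCm38), the alpha-1 chain of type I collagen, had 1041, 999 and 730 CPM in the classical monocyte libraries, 824, 904 and 610 in early CMDMs, 93.3, 82.4 and 91.0 in late CMDMs and 49.7, 64.2 and 63.6 in resident-like macrophages. The classical monocyte and early CMDM libraries overlapped, every one of them was above all Ly6Clo libraries, and the late CMDM libraries were all above the resident-like ones. The log2 fold change of Col1a1 in late against early CMDMs was -3.13 (SE 0.17, adjusted p = 4.37e-08 in edgeR), a fall to 0.114 of the early level. In early CMDMs against classical monocytes it was -0.24 (95% interval -0.58 to 0.09, adjusted p = 0.224).

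Col3a1 (chr1:45311538-45349706), the chain of type III collagen, had 1582, 1373 and 1007 CPM in classical monocytes, 1277, 1213 and 958 in early CMDMs, 129, 144 and 132 in late CMDMs and 84.0, 98.6 and 99.5 in resident-like macrophages. Its libraries were ordered as those of Col1a1, with a log2 fold change of -3.09 (SE 0.16, adjusted p = 4.37e-08) in late against early CMDMs. Col1a2 (chr6:4504814-4541544), the partner chain of Col1a1, had 1197, 1079 and 737 CPM in classical monocytes, 997, 1044 and 696 in early CMDMs, 117, 110 and 108 in late CMDMs and 66.0, 76.6 and 78.5 in resident-like macrophages. The ratio of the Col1a1 level to the Col1a2 level stayed between 0.747 and 0.990 in all 12 libraries. Its mean log2 value in early CMDMs minus that in classical monocytes was -0.12 (2-sided exact permutation test, p = 0.2, where 3 against 3 libraries cannot go below 0.1).

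None of the 10 fibrillar collagens passed the threshold in edgeR between early CMDMs and classical monocytes, where 44.9% of all genes did, and 2 of them, Col2a1 and Col5a1, had an unadjusted p under 0.05. DESeq2 gave adjusted p-values of 0.243 for Col1a1, 0.56 for Col1a2 and 0.314 for Col3a1. Col1a1 and Col3a1 were called lower in early CMDMs once classical monocyte replicate 3, the library with the lowest fibrillar levels of its fraction, was left out, at -0.39 and -0.36. With leukocyte gene scaling Col1a1, Col1a2 and Col3a1 turned to 1.37, 1.48 and 1.39, below the shift of the median gene. In late CMDMs 6 of the 10, Col1a1, Col1a2, Col3a1, Col5a1, Col5a2 and Col5a3, were lower than in early CMDMs, with a class median of -2.72 (17.5% of all genes were lower). In resident-like macrophages 6 were lower than in early CMDMs, with a class median of -3.45 (25.1% of all genes were lower). The other 4, Col27a1, Col11a1, Col11a2 and Col2a1, have other known sites, cartilage among them, and did not pass in late against early CMDMs, at log2 fold changes of -0.28, 0.49, 0.15 and -0.12. Col27a1 had 5.19 to 10.2 CPM in the 12 libraries and was lower in late CMDMs than in classical monocytes by -0.60 (SE 0.16), and Col2a1 had 0.108 to 2.03 CPM.

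The promoters of Col1a2 and Col3a1 are shown because these genes moved side by side in the libraries. Each run holds 250 bases before and 50 after the start site given by RefSeq on GRCm38.p6, 5′ to 3′ on the strand of the gene, and capitals mark every CCAAT box (CCAAT), TATA box (TATAAA) or GC box (GGGCGG), read on either strand. Col1a2 is at chr6:4505368-4505667 (plus strand), with 2 CCAAT and 2 GC boxes, and Col3a1 at chr1:45311288-45311587 (plus strand), with 1 TATA box and neither of the others.
Col1a2: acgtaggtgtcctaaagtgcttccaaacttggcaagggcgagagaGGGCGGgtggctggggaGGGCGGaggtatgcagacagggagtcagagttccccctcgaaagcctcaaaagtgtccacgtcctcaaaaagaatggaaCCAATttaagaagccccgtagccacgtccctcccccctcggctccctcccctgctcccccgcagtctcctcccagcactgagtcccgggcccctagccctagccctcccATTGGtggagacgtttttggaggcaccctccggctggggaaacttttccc
Col3a1: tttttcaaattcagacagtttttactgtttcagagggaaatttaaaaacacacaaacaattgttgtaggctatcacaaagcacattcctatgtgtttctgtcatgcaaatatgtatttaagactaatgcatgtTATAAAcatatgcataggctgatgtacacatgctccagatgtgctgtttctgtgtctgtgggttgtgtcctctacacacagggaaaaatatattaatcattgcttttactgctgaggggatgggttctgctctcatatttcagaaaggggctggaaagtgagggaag

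**Figure D2:**
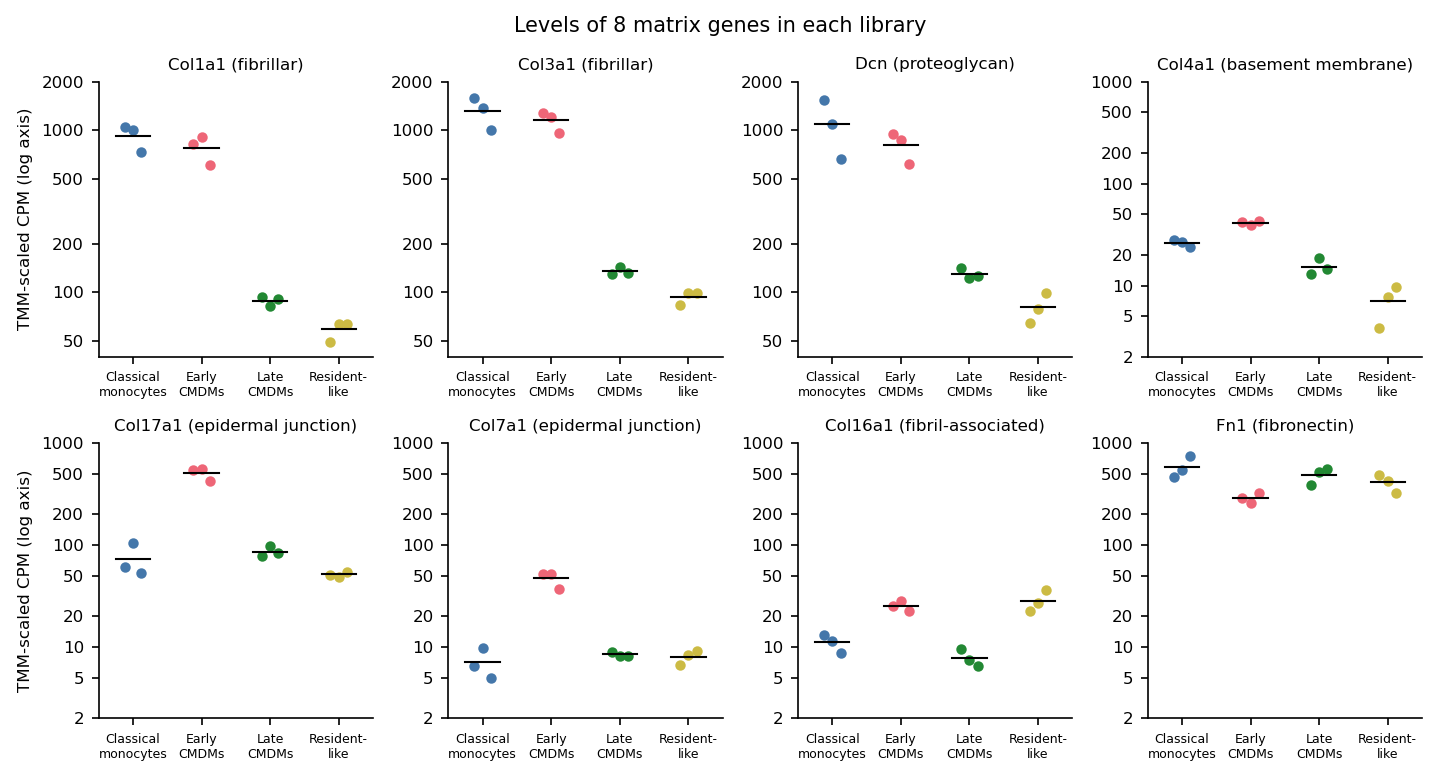
TMM-scaled CPM on a log axis in each of the 12 libraries for 8 genes, where points are libraries, lines are means of 3 libraries, and the axes of Col1a1, Col3a1 and Dcn cover other values than the rest. Col1a1, Col3a1 and Dcn overlap between classical monocytes and early CMDMs and drop in the Ly6Clo fractions, Col4a1 has no overlap between fractions, Col17a1 and Col7a1 stand highest in early CMDMs (424 to 559 and 37.1 to 52.4 CPM), Col16a1 is high in early CMDMs and resident-like macrophages, and Fn1 is lowest in early CMDMs on this scale, which leukocyte gene scaling reverses.

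Genes that bind, cut or cross-link the dermal fibers fell with the fibrillar collagens. Dcn (chr10:97479609-97518143), decorin, which coats collagen fibrils, had 1532, 1097 and 660 CPM in classical monocytes, 944, 872 and 623 in early CMDMs, 142, 123 and 127 in late CMDMs and 64.6, 79.0 and 99.5 in resident-like macrophages. The 6 Ly6Chi libraries were all above the 6 Ly6Clo libraries, with a log2 fold change of -2.64 (SE 0.27, adjusted p = 6.73e-06) in late against early CMDMs. Of the proteoglycans beside it, Lum, lumican, changed by -2.95 (SE 0.25) and Bgn, biglycan, by -2.05 (SE 0.32) in the same comparison. In the libraries Lum had 211, 167 and 108 CPM, then 145, 138 and 89.8, then 15.1, 15.6 and 17.5, and last 9.76, 10.3 and 14.2, in the same order of fractions, and Bgn had 179, 146 and 103, then 135, 128 and 113, then 29.5, 28.5 and 32.4, and last 11.8, 27.2 and 36.3. The Ly6Chi libraries of both genes lay above all Ly6Clo ones. Lum had means of 162 ± 52.1, 124 ± 30.1, 16.1 ± 1.28 and 11.4 ± 2.44 CPM (SD, n = 3) in the same order of fractions, and Bgn had 142 ± 38.3, 125 ± 11.5, 30.1 ± 2.01 and 25.1 ± 12.4. The ratio of the proteoglycan sum to the fibrillar sum stayed within 0.331 to 0.541 in all 12 libraries.

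Sparc (chr11:55394500-55423183), a collagen-binding matricellular protein, had 1312, 1322 and 764 CPM in classical monocytes, 970, 1103 and 805 in early CMDMs, 152, 159 and 156 in late CMDMs and 78.1, 129 and 164 in resident-like macrophages. Its Ly6Chi libraries lay above all Ly6Clo ones, while late CMDMs and resident-like macrophages overlapped, and the log2 fold change was -2.62 (SE 0.26, adjusted p = 4.55e-06) in late against early CMDMs. Fstl1, a secreted glycoprotein of mesenchymal cells, changed by -2.46 (SE 0.19), and Fbn1, fibrillin, the scaffold of elastic fibers, by -2.61 (SE 0.18). Fstl1 had 207, 169 and 110 CPM in classical monocytes, 144, 133 and 131 in early CMDMs, 27.6, 23.8 and 22.6 in late CMDMs and 12.4, 15.5 and 18.1 in resident-like macrophages. Fbn1 had 77.7, 52.6 and 48.0 CPM in classical monocytes, 54.3, 45.8 and 46.6 in early CMDMs, 8.04, 8.75 and 7.15 in late CMDMs and 3.94, 5.34 and 5.83 in resident-like macrophages. Both genes had no overlap between Ly6Chi and Ly6Clo libraries or between the Ly6Clo fractions. Eln, elastin itself, changed by -1.55 (SE 0.36) and had means of 27.4 ± 11.1, 36.1 ± 5.03, 12.3 ± 1.15 and 10.2 ± 5.09 CPM (SD, n = 3) in the fractions in turn. Pdgfra (chr5:75152292-75198215), the receptor by which fibroblasts are commonly marked, had 25.1, 19.5 and 12.7 CPM in classical monocytes, 16.7, 13.6 and 11.5 in early CMDMs, 2.39, 2.61 and 2.29 in late CMDMs and 1.56, 1.58 and 2.35 in resident-like macrophages, and changed by -2.51 (SE 0.25, adjusted p = 2.15e-06) in late against early CMDMs.

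Within this group the step from classical monocytes to early CMDMs differed in direction. Thbs2, thrombospondin-2, rose by 1.38 (SE 0.23, adjusted p = 0.000148), from 4.52 to 9.18 CPM in classical monocytes to 14.8 to 20.8 CPM in early CMDMs. Postn, periostin, had 228, 130 and 119 CPM in classical monocytes and 267, 210 and 178 in early CMDMs, with overlap and a log2 fold change of 0.46 that did not pass (adjusted p = 0.117) but did without classical monocyte replicate 1, at 0.82. In late CMDMs Postn had 48.0, 54.8 and 47.1 CPM and in resident-like macrophages 18.2, 19.5 and 26.7. Serpinf1, the collagen-binding serpin PEDF, had 170, 150 and 92.9 CPM in classical monocytes, 99.8, 103 and 72.1 in early CMDMs, 19.8, 22.1 and 20.2 in late CMDMs and 24.8, 31.9 and 31.7 in resident-like macrophages. In early CMDMs against classical monocytes Serpinf1 was called lower at -0.58 (SE 0.19, adjusted p = 0.0203) and Pcolce, which enhances the cutting of procollagen, at -0.52 (SE 0.20, adjusted p = 0.044). The call for Serpinf1 was lost without classical monocyte replicate 1 or 2 or early CMDM replicate 3, at -0.39, -0.52 and -0.43, and leukocyte gene scaling turned it to 1.02. The call for Pcolce was also lost without classical monocyte replicate 1 or 2, where 2 members, Fn1 and Col22a1, stayed called lower. Dcn and Pdgfra, at -0.43 and -0.45, did not pass, and both were called lower without classical monocyte replicate 3, at -0.69 and -0.68.

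Type VI collagen, which forms beaded filaments around cells and is made in skin mainly by fibroblasts, followed the fibrillar chains. Col6a1 (chr10:76708792-76726168) had 119, 87.7 and 72.4 CPM in classical monocytes, 102, 82.8 and 75.3 in early CMDMs, 13.5, 15.7 and 15.2 in late CMDMs and 6.09, 8.43 and 11.8 in resident-like macrophages. The Ly6Chi libraries did not overlap with the others, the late CMDM libraries were all above the resident-like ones, and the log2 fold change in late against early CMDMs was -2.54 (SE 0.22, adjusted p = 9.38e-07). Col6a2, which shares its trimer, had 100.1, 77.7 and 65.9 CPM in classical monocytes, 89.5, 71.2 and 68.6 in early CMDMs, 11.8, 12.5 and 15.6 in late CMDMs and 5.44, 7.83 and 11.2 in resident-like macrophages. Its log2 fold change in late against early CMDMs was -2.52 (SE 0.22), and the Col6a1 to Col6a2 ratio stayed within 0.978 and 1.26 in all libraries. Col6a5 fell by 3.15 (SE 0.51) on the log2 scale, the largest fall of any member called in that comparison, from 5.51 to 13.4 CPM in early CMDMs to 0.877 to 1.04 CPM in late CMDMs. Col6a6, its paralog, with which it may share reads, had 2.47 to 4.25 CPM in late CMDMs and 3.86 to 5.69 in early CMDMs, a log2 difference of -0.48 that did not pass, and was lower in resident-like macrophages than in late CMDMs by -2.05 (SE 0.30).

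Basement membrane collagens differed from the fibrillar chains in the step from classical monocytes to early CMDMs, where 5 of 8 were called higher and none lower (24.2% and 20.6% of all genes). Col4a1 (chr8:11198423-11312826, minus strand), the main chain of most basement membranes, had 28.0, 26.9 and 23.8 CPM in classical monocytes, 42.1, 39.0 and 42.5 in early CMDMs, 12.9, 18.7 and 14.4 in late CMDMs and 3.83, 7.64 and 9.65 in resident-like macrophages. No libraries of different fractions overlapped, and early CMDMs were above classical monocytes by a log2 fold change of 0.65 (SE 0.21, adjusted p = 0.0199). That call was lost without classical monocyte replicate 3, at 0.59 (adjusted p = 0.0611 in edgeR). Col4a2 (chr8:11312805-11449287, plus strand), with which it forms the trimer, had 15.3, 16.7 and 13.4 CPM in classical monocytes, 30.3, 24.6 and 24.9 in early CMDMs, 7.09, 9.42 and 7.62 in late CMDMs and 3.34, 4.73 and 7.36 in resident-like macrophages. Here only the late CMDM and resident-like libraries overlapped, and the early CMDM level was higher than that of classical monocytes by 0.81 (SE 0.20, adjusted p = 0.00296).

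Larger differences were seen for the type IV chains that join in epidermal and smooth muscle basement membranes. Col4a5 rose by 2.19 (SE 0.24, adjusted p = 1.58e-06), from 1.67 to 4.78 CPM in classical monocytes to 14.2 to 15.1 CPM in early CMDMs. Col4a6 rose by 1.78 (SE 0.40), from 1.21 to 1.39 CPM to 2.98 to 5.94 CPM. Col18a1, the source of endostatin, rose by 1.84 (SE 0.16) and was the 1 basement membrane member called higher in late CMDMs than in classical monocytes, by 1.10 (SE 0.16), with 5.52 to 5.79 CPM in classical monocytes and 9.51 to 14.6 in late CMDMs. Col4a3 and Col4a4, known from the glomerular membrane, were low, at 2.28 CPM or less in every library, and did not pass between early CMDMs and classical monocytes, at -0.35 and -0.21. All 8 were lower in late than in early CMDMs (class median -1.72, 17.5% of all genes lower). All 8 were also lower in resident-like macrophages than in early CMDMs (class median -2.40, 25.1% of all genes lower).

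Mural cell and endothelial markers, whose cells lie on basement membranes, moved in some of the same comparisons. The summed level of 6 mural cell markers was 9.76 to 12.2 CPM in classical monocytes, 68.9 to 79.7 in early CMDMs, 16.5 to 28.2 in late CMDMs and 12.7 to 34.0 in resident-like macrophages. Each of the 6 passed the test for a rise from classical monocytes to early CMDMs (24.2% of all genes were higher). The sum of 6 endothelial markers was 75.1 to 80.3 CPM in classical monocytes, 149 to 160 in early CMDMs, 147 to 174 in late CMDMs and 50.6 to 79.3 in resident-like macrophages. From classical monocytes to early CMDMs 5 of these 6 were called higher and 1 lower, at -0.89 (24.2% and 20.6% of all genes). The part of mural and endothelial cells in the levels of the basement membrane collagens was not tested.

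The promoters of Col4a1 and Col4a2 are shown because the genes lie head to head and moved side by side, with a Col4a1 to Col4a2 ratio of 1.15 to 1.98 in the 12 libraries. Their start sites are 21 bases apart on opposite strands, and the windows share 78 bases. Col4a1 is at chr8:11312777-11313076 (minus strand), with 1 CCAAT and 1 GC box, and Col4a2 at chr8:11312555-11312854 (plus strand), with 1 CCAAT and 3 GC boxes.
Col4a1: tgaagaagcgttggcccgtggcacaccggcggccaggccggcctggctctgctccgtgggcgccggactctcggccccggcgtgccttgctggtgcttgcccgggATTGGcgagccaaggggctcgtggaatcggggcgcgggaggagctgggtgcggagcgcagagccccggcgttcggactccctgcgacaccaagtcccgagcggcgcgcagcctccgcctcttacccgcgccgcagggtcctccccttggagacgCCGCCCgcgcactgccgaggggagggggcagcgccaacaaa
Col4a2: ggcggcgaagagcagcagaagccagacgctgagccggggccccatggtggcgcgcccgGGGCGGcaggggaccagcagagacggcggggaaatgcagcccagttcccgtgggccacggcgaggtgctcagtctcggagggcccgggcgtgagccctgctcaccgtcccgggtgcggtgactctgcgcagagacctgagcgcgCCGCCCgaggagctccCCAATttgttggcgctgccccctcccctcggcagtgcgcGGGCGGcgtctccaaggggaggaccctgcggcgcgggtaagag

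The epidermal junction collagens had the largest rise into early CMDMs among members with more than 1 count in every fraction. Col17a1 (chr19:47646344-47692094, minus strand) had 61.5, 105 and 53.7 CPM in classical monocytes, 541, 559 and 424 in early CMDMs, 78.8, 96.9 and 83.2 in late CMDMs and 51.1, 49.1 and 54.2 in resident-like macrophages. The early CMDM libraries were far above all others, which spanned 49.1 to 105 CPM, and Col17a1 rose 6.91-fold against classical monocytes, a log2 fold change of 2.79 (SE 0.21, adjusted p = 6.3e-08), and fell by 2.56 (SE 0.20) in late CMDMs. Col7a1 (chr9:108953586-108984875, plus strand) had 6.52, 9.79 and 4.96 CPM in classical monocytes, 52.4, 51.7 and 37.1 in early CMDMs, 9.0, 8.21 and 8.23 in late CMDMs and 6.63, 8.31 and 9.12 in resident-like macrophages. Its early CMDM libraries were again above all others, and it rose 6.62-fold, by 2.73 (SE 0.21, adjusted p = 4.63e-08), and fell by 2.47 (SE 0.21) in late CMDMs.

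Late CMDMs and classical monocytes did not differ past the threshold for either gene (0.23 for Col17a1 and 0.25 for Col7a1, 95% intervals -0.19 to 0.65 and -0.21 to 0.72). Without classical monocyte replicate 2, the library of its fraction with the highest Col17a1, both were called higher in late CMDMs, at 0.59 and 0.56. Resident-like macrophages were lower than late CMDMs for Col17a1 (-0.75, SE 0.20, adjusted p = 0.0113), while Col7a1 did not differ past the threshold (-0.08, 95% interval -0.54 to 0.38). The ratio of Col7a1 to Col17a1 was 0.0847 to 0.114 in the 9 libraries of the other fractions and 0.130, 0.169 and 0.168 in the resident-like libraries.

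Keratinocyte markers moved with these genes. The summed level of 5 keratins (Krt1, Krt5, Krt10, Krt14, Krt15) and desmoplakin (Dsp), all above 0 in every library, was 1871 to 4050 CPM in classical monocytes, 17096 to 27284 in early CMDMs, 3106 to 3647 in late CMDMs and 2298 to 2615 in resident-like macrophages. Each of the 6 rose from classical monocytes to early CMDMs (24.2% of all genes were higher). The ratio of the epidermal junction collagen sum to the keratinocyte sum stayed within 0.0219 to 0.0314 in all 12 libraries. The ratio of Col17a1 to Krt14 was 0.124 to 0.147 in classical monocytes and 0.132 to 0.145 in early CMDMs, with 0.104 to 0.107 in late CMDMs, below all 6 of these libraries, and 0.116 to 0.127 in resident-like macrophages. The mean log2 ratio in early CMDMs minus that in classical monocytes was 0.02 (2-sided exact permutation test, p = 1.0). With 3 against 3 libraries this p cannot go below 0.1. The part of keratinocyte RNA in these levels was not tested.

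The promoters of Col17a1 and Col7a1 are shown because both genes had their highest level in early CMDMs. Col17a1 is at chr19:47691993-47692292 (minus strand), with 2 TATA boxes and 1 CCAAT box, and Col7a1 at chr9:108953336-108953635 (plus strand), with 1 CCAAT and 1 GC box.
Col17a1: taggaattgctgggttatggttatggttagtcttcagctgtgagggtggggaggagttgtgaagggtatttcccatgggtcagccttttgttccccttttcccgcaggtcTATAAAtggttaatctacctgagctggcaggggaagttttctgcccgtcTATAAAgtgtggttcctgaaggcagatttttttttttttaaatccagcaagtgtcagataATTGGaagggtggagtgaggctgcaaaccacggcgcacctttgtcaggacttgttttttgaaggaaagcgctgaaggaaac
Col7a1: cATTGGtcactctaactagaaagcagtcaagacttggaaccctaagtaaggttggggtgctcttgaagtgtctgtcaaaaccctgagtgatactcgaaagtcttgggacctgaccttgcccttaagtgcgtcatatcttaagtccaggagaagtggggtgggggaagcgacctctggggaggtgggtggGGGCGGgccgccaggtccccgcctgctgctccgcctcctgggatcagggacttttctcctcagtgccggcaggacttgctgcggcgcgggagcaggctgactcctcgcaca

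Ratios between classes were taken within each library. The summed fibrillar level over the summed epidermal junction level was 59.7, 31.8 and 44.9 in classical monocytes, 5.56, 5.46 and 5.27 in early CMDMs, 4.25, 3.56 and 4.06 in late CMDMs and 3.82, 4.68 and 4.38 in resident-like macrophages. The fibrillar over basement membrane ratio was 47.8 to 61.8 in classical monocytes, 21.3 to 28.4 in early CMDMs, 7.11 to 9.61 in late CMDMs and 10.0 to 12.5 in resident-like macrophages, with no overlap between any fractions. A ratio within a library does not depend on how libraries are scaled. The log2 ratio of Col1a1 to Col17a1 was lower in early CMDMs than in classical monocytes by 3.09 on average without overlap (2-sided exact permutation test, p = 0.1, the smallest possible, adjusted p = 0.3 over the 3 ratios tested).

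Set against keratinocyte markers, the fibrillar sum was 0.902 to 1.49 in classical monocytes, 0.122 to 0.142 in early CMDMs, 0.103 to 0.12 in late CMDMs and 0.0960 to 0.117 in resident-like macrophages. The classical monocyte libraries were above all others, while late CMDMs overlapped with resident-like macrophages. Set against 10 leukocyte genes, the fibrillar sum was 0.881 to 2.02 in early CMDMs, 0.442 to 0.684 in classical monocytes, 0.0847 to 0.10 in late CMDMs and 0.0411 to 0.0512 in resident-like macrophages. The leukocyte sum itself was 5932 to 6133 CPM in classical monocytes, 1647 to 2759 in early CMDMs, 3733 to 4377 in late CMDMs and 5363 to 5650 in resident-like macrophages.

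**Figure D3:**
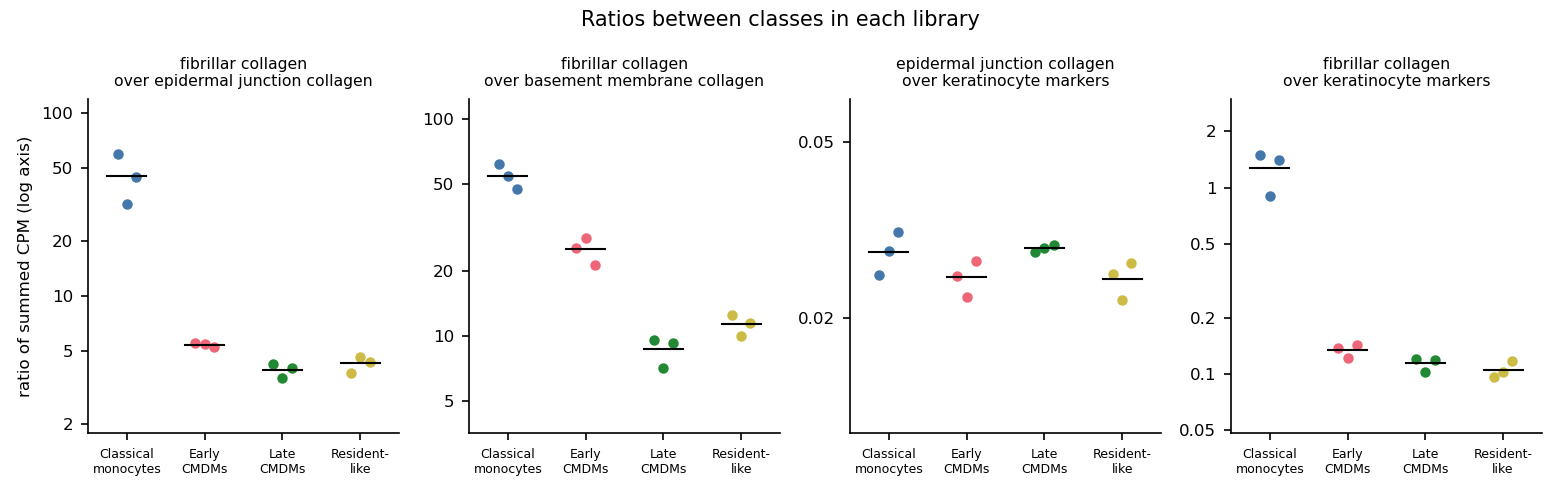
Ratios of summed CPM between classes in each of the 12 libraries, on log axes, where points are libraries and lines are means of 3. Fibrillar over epidermal junction collagen is 31.8 to 59.7 in classical monocytes and 3.56 to 5.56 in the other 9 libraries, fibrillar over basement membrane collagen separates all 4 fractions, epidermal junction collagen over keratinocyte markers stays within 0.0219 to 0.0314, and fibrillar collagen over keratinocyte markers is high in classical monocytes.

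Some collagens and fibronectin went their own way. Fn1 (chr1:71585520-71653200), which macrophages are known to make, had 463, 548 and 743 CPM in classical monocytes, 287, 261 and 321 in early CMDMs, 390, 519 and 562 in late CMDMs and 487, 425 and 321 in resident-like macrophages. Early CMDM libraries were all below those of classical monocytes and late CMDMs, at a log2 fold change of -1.01 (SE 0.19, adjusted p = 0.0004) against classical monocytes and a rise of 0.76 (SE 0.19, adjusted p = 0.00548) into late CMDMs. With leukocyte gene scaling these became 0.53 and -0.22, so that its direction rests on the scaling. The excess of resident-like macrophages over early CMDMs, 0.51 (SE 0.19, adjusted p = 0.0367), was lost without early CMDM replicate 1 or 2 or resident-like replicate 1 or 2, at 0.37 to 0.50. Per kilobase of its longest annotated transcript, Fn1 had 70.3 CPM in classical monocytes against 156 for Col1a1, and 49.4 CPM in resident-like macrophages against 9.97 for Col1a1.

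Col16a1 (chr4:130047840-130099283), a fibril-associated collagen of dermis and epidermis, had 13.2, 11.5 and 8.64 CPM in classical monocytes, 25.0, 28.0 and 22.4 in early CMDMs, 9.48, 7.54 and 6.47 in late CMDMs and 22.4, 26.8 and 35.8 in resident-like macrophages. It was the 1 member called higher in resident-like macrophages than in late CMDMs, by 1.86 (SE 0.20, adjusted p = 4.5e-06), and than in classical monocytes, by 1.35 (SE 0.19). Resident-like macrophages and early CMDMs overlapped, at a difference of 0.17 (95% interval -0.21 to 0.56). Col12a1, of dense connective tissue, rose in early CMDMs by 1.76 (SE 0.22, adjusted p = 6.81e-06), with 6.41 to 10.2 CPM in classical monocytes, 27.7 to 33.0 in early CMDMs, 5.81 to 7.90 in late CMDMs and 2.24 to 5.06 in resident-like macrophages. Col14a1, a fibril-coating relative of Col12a1, had 45.4, 33.8 and 18.6 CPM in classical monocytes, 26.3, 21.2 and 19.8 in early CMDMs, 3.42, 3.53 and 3.3 in late CMDMs and 6.36, 4.67 and 4.71 in resident-like macrophages. Its difference between early CMDMs and classical monocytes (-0.54, adjusted p = 0.0782) did not pass and was called without classical monocyte replicate 3, at -0.82.

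The transmembrane and short-chain collagens were mostly low. Col23a1, a transmembrane collagen, had 1.73 to 3.08 CPM in classical monocytes, 4.69 to 5.26 in early CMDMs, 6.20 to 8.57 in late CMDMs and 0.809 to 2.18 in resident-like macrophages, so that late CMDMs were highest without overlap. It was higher in late CMDMs than in classical monocytes by 1.62 (SE 0.26, adjusted p = 0.000136) and did not pass against early CMDMs (0.58, adjusted p = 0.0862). Col8a1, a chain of the network under endothelium, had 15.9, 12.1 and 15.9 CPM in classical monocytes, 20.5, 25.7 and 31.7 in early CMDMs, 23.9, 32.4 and 26.6 in late CMDMs and 3.83, 20.9 and 38.6 in resident-like macrophages, and no comparison passed. Col28a1, a collagen described around peripheral nerve, had 1 count or none in each classical monocyte and resident-like library, so that its level in early CMDMs was at least 4.75-fold higher than in classical monocytes, and that in late CMDMs at least 4.87-fold higher, against the level of 3 counts per library. Col22a1 and Col26a1 were lower in early CMDMs than in classical monocytes by -0.71 (SE 0.18) and -0.46 (SE 0.17) at 2.78 to 6.28 and 3.71 to 5.77 CPM in the 12 libraries, and Col26a1 did not pass the test for any difference among the 4 fractions (adjusted p = 0.11 in edgeR). Of the chains known from cartilage, Col9a1, Col9a2, Col9a3, Col11a1, Col11a2 and Col2a1 had at most 4.78 CPM in any library and none differed among the 4 fractions, and untested Col10a1 had at most 0.759 CPM.

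Counted over all members, the comparison of early CMDMs with classical monocytes called 12 higher and 6 lower, of 53 tested, against 24.2% of all genes higher and 20.6% lower, with a median log2 fold change of -0.09 over the members and -0.01 over all genes. Of all genes 44.9% were called in either direction. The count of lower members ranged from 2 without classical monocyte replicate 1 or 2 to 13 without classical monocyte replicate 3, and was 3 without any 1 of the early CMDM libraries. Leukocyte gene scaling called all 53 higher and 0 lower, but it also set the median of all genes at 1.53 in this comparison. The share of all genes called under that scaling is not given here.

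The comparisons across Ly6C were 1-sided. In late against early CMDMs 1 member was higher and 36 were lower (14.4% and 17.5% of all genes, 31.9% in either direction), with a median of -2.12 over members and 0.02 over all genes. In resident-like macrophages against early CMDMs 2 were higher and 39 lower (21.4% and 25.1% of all genes), with medians of -2.55 and 0.03. Late CMDMs against classical monocytes gave 3 higher and 31 lower (18.1% and 17.5%), medians -1.15 and -0.01, and resident-like macrophages against classical monocytes 1 higher and 34 lower (10.8% and 12.9%), medians -1.90 and 0.00. These comparisons share fractions, so that they are not separate lines of evidence.

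Among the Ly6Clo fractions, resident-like macrophages had 1 member higher and 22 lower than late CMDMs (12.7% and 15.4% of all genes), with medians of -0.59 and 0.00. Without resident-like replicate 1, the library with the lowest Col1a1, Col3a1 and Dcn levels, 12 were lower. Leaving out that library also ended the call for Col1a1, which moved from -0.59 to -0.48 (adjusted p = 0.0615 in edgeR). Under leukocyte gene scaling, which set the median of all genes at -0.42 here, 30 were lower.

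**Figure D4:**
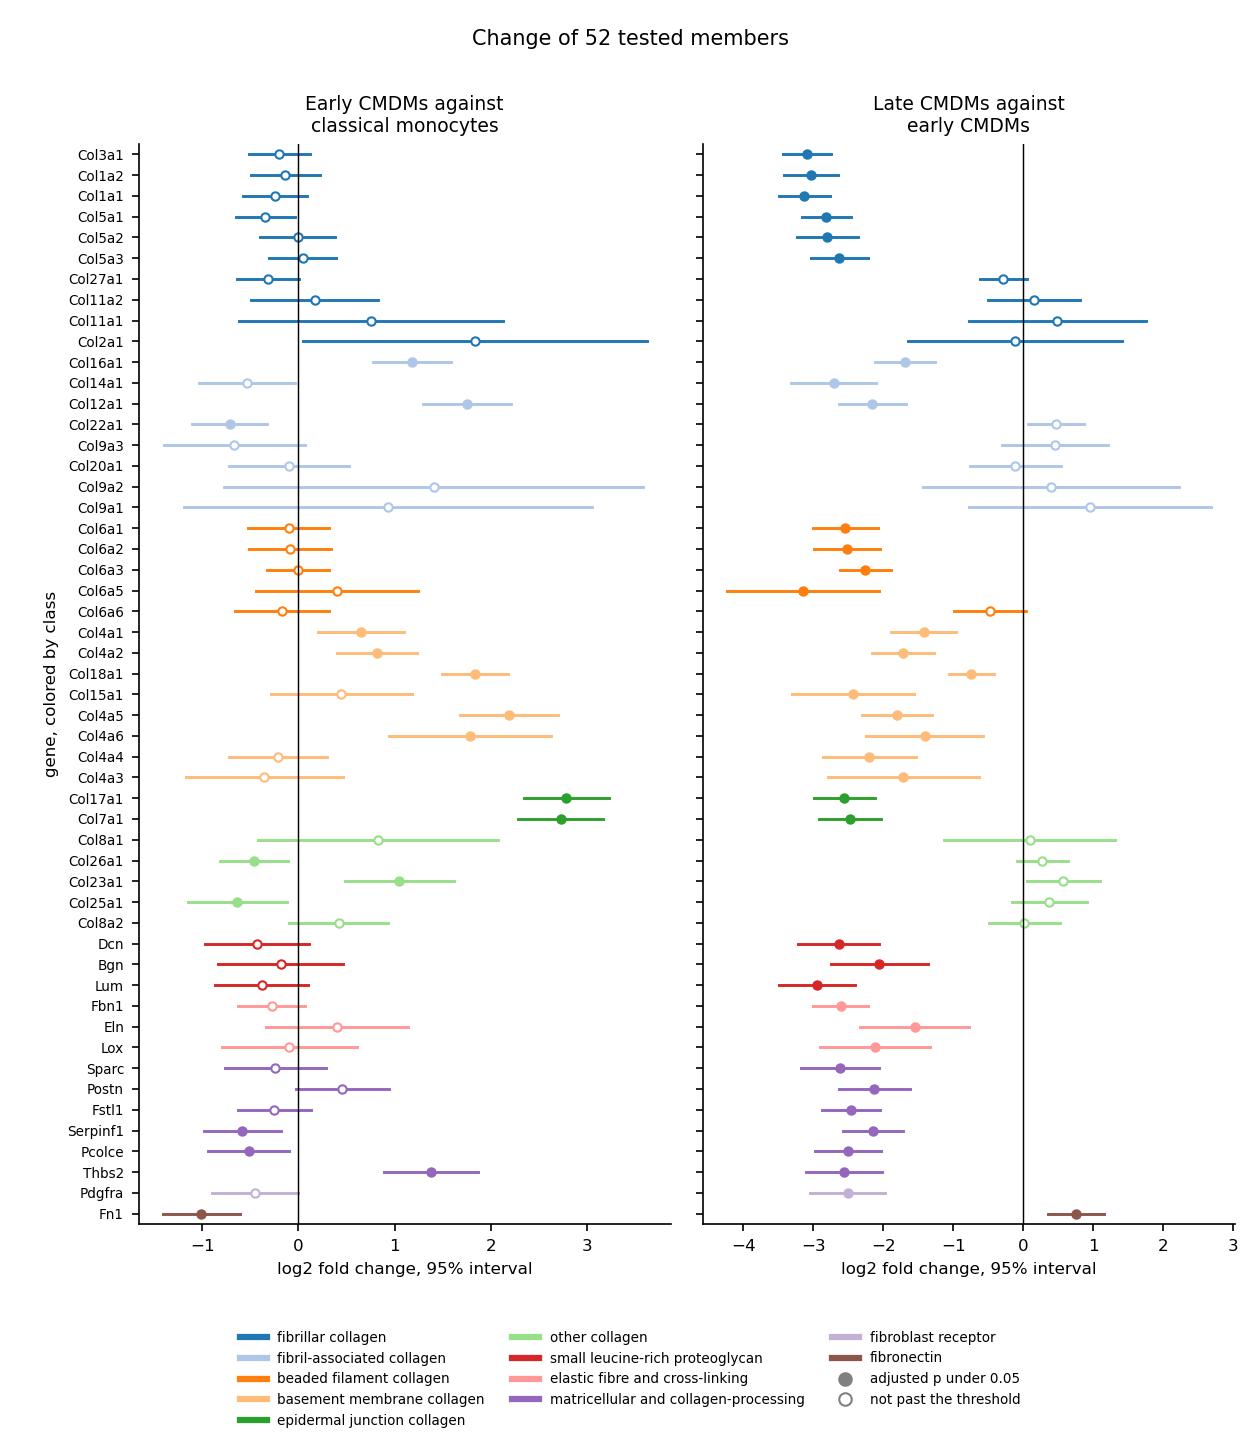
Log2 fold change of 52 tested members with 95% intervals, in early CMDMs against classical monocytes (left) and late against early CMDMs (right), on the TMM scale, where filled points have an adjusted p under 0.05, color gives the class, and Col28a1, with 1 count or none in the classical monocyte libraries, is left out. On the left the fibrillar collagens straddle 0 while Col17a1 and Col7a1 reach 2.79 and 2.73, and on the right most dermal members lie between -3.15 and -1.5. Leukocyte gene scaling moves every member on the left above 0, where it set the median of all genes at 1.53. It turns the Fn1 change on the right to -0.22.

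Markers of fibroblasts that are not members were, as the dermal genes, lower in the Ly6Clo than in the Ly6Chi fractions. All 11 of the tested markers (Thy1, Pdgfrb, Twist1, Twist2, Dpt, Mfap5, Pi16, Dpep1, Gsn, Mfap4 and Prrx1, with Tcf21 too low to test) were lower in both Ly6Clo fractions than in either Ly6Chi fraction. The same held for 2.42% of all genes tested. The sum of the markers was 1224 to 2109 CPM in classical monocytes, 1199 to 1695 in early CMDMs, 380 to 403 in late CMDMs and 356 to 395 in resident-like macrophages. In early CMDMs against classical monocytes 4 of 11 were lower (median -0.51, 20.6% of all genes lower), and 0 of 10 fibrillar collagens. In resident-like macrophages against late CMDMs 2 of 11 were lower (15.4% of all genes lower), and 6 of 10 fibrillar collagens. Each of the 11 was above 0 in every library, and their part in the collagen levels was not tested.

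Of 24 tested enzymes and chaperones of collagen synthesis, 12 were lower and 3 higher in late than in early CMDMs (17.5% and 14.4% of all genes). Serpinh1, the collagen chaperone, had 87.1 ± 30.2 CPM in classical monocytes, 116 ± 10.9 in early CMDMs, 26.1 ± 0.680 in late CMDMs and 10.5 ± 3.10 in the resident-like fraction (SD, n = 3), and the lysyl oxidase relative Loxl1 and the procollagen proteinase Adamts2 were lower in late than in early CMDMs by -2.83 and -2.24. P4hb, a chaperone of most secreting cells, had 353 CPM in classical monocytes, 325 in early CMDMs, 363 in late CMDMs and 328 in the resident-like fraction on average and did not pass in any of the 6 comparisons. P3h2, a prolyl hydroxylase with a preference for basement membrane collagen, rose by 2.32 in early CMDMs and stayed at 26.6 and 21.1 CPM on average in the late CMDM and resident-like fractions.

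Of 13 other tested proteins of the basement membrane, 4 were called higher in early CMDMs against classical monocytes and 9 were not called (24.2% of all genes were higher). Lama3 and Lamb3, laminin chains of the epidermal junction, rose in early CMDMs against classical monocytes by 2.81 and 2.61, as did Lama5 by 2.75, and 9 of the 13 were lower in late than in early CMDMs (17.5% of all genes). Nid1 and Lama2, of general and mesenchymal basement membranes, did not pass in early CMDMs against classical monocytes, at -0.22 and -0.48. Of 5 hemidesmosome genes, Itgb4, Itga6, Dst and Cd151 rose by 2.82, 2.44, 2.39 and 1.66, and Plec fell by 0.52.

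Of 14 genes that bind, take up or degrade collagen, 6 were higher and 4 lower in late than in early CMDMs (14.4% and 17.5% of all genes). The macrophage mannose receptor Mrc1, which takes up collagen, rose by 1.41 and the lysosomal cathepsins Ctsl, Ctsb and Ctss by 1.38, 1.19 and 1.18, on the TMM scale, while the fibroblast receptors Mrc2 and Ddr2 fell by 2.74 and 2.5. Mrc1 had a mean of 299.8 CPM in classical monocytes, 516 in early CMDMs, 1369 in late CMDMs and 753 in the resident-like fraction. The changes of these genes under leukocyte gene scaling are not given here. That scaling set the median of all genes at -0.97 in late against early CMDMs.

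Promoter windows were found in RefSeq for 40 of the 54 members, in 44 windows. The GC box was present in 59.1% of them against 35.7% of all 32851 windows, the CCAAT box in 34.1% against 37.4%, the TATA box in 13.6% against 13.6%, and the AP-1 site (TGANTCA) in 2.27% against 7.81%. Among the windows of fibrillar collagens 6 of 7 held a GC box, and of basement membrane collagens 5 of 8. CCAAT boxes were in both epidermal junction windows and in none of the 6 beaded filament windows. These matches describe letters in a window of 300 bases and were not tied to the levels.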

How the data were processed

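PolyA RNA of 12 libraries, 3 for each of 4 sorted fractions, was sequenced. Per the study's methods, the authors trimmed reads with cutadapt, aligned them with Bowtie2 to the reference RNA of GRCm38 (Ensembl release 101) on 1 strand, and summed transcripts by gene symbol. The deposited values were raw counts per gene, without normalization. Collagen paralogs can share reads.

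Counts were analysed as deposited with edgeR 4.0.16 (R 4.3.3), in place of TCC, which the authors used: TMM scaling, filterByExpr by fraction, a robust quasi-likelihood fit over all 12 libraries without a replicate block, and Benjamini-Hochberg adjustment over 22118 genes, called under 0.05. Single ratios were compared by exact permutation tests. On simulated counts with 200 genes changed 3-fold between early CMDMs and classical monocytes, 96.5% were recovered among 21619 genes, and 10 unchanged genes were called. In the data 44.9% of genes were called in that comparison, so the simulation does not test the scaling. Alternatives were DESeq2, other scalings and filters, a replicate block and leaving out each library. The labels do not say that replicate numbers pair the libraries, and the main fit did not treat them as pairing. Correlations of same-numbered libraries passed 0.1 in 4 of 18 pairs, while 10 of 12 libraries correlated best with their own number. Counting limits cover counting error only. Positions are from GENCODE M21 and promoters from RefSeq.

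Members and gene lists were chosen with earlier results of these data known. Values in every library were given for 12 genes set by name, the 2 members of each class with the highest mean CPM, the 10 highest members that differed among fractions without peaking in early CMDMs, and the called members with the largest and smallest change in each comparison. Others were chosen after their values were seen. 1 gene of the lists is not reported here.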

Additional observations from a re-analysis of the deposited data

How the results depend on the processing

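Across the alternatives 314 of the recomputed counts stayed within 1.5 times their value and 42 did not, and of the single log2 fold changes 1319 kept direction and side of the threshold, 39 lost the call, 35 gained it and 23 changed sign. Members lower in early CMDMs than in classical monocytes (6) numbered 2 with DEGES scaling, 3 with no filter, 2 at adjusted p under 0.01, 1 at a log2 change of at least 1 and 0 with leukocyte gene scaling, which called 53 higher. Members higher in late than in early CMDMs (1) numbered 2 in a fit of 6 libraries, 0 with leukocyte gene scaling and 0 at a log2 change of at least 1. Members higher in resident-like macrophages than in early CMDMs (2) numbered 1 with DEGES or no filter and 0 with leukocyte gene scaling, library size only, adjusted p under 0.01 or a log2 change of at least 1. Members higher in late CMDMs than in classical monocytes (3) numbered 5 in a fit of 6 libraries and 9 with leukocyte gene scaling. Members higher in resident-like macrophages than in late CMDMs (1) numbered 3 in a fit of 6 libraries and 2 with the replicate block, and those lower (22) numbered 10 at adjusted p under 0.01 and 9 at a log2 change of at least 1. Both pattern counts were chosen after seeing the data. The count with early CMDMs above each other fraction went from 6 to 18 with leukocyte gene scaling.

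Leukocyte gene scaling turned early CMDMs against classical monocytes to 1.37 for Col1a1, 1.48 for Col1a2, 1.39 for Col3a1, 1.47 for Col6a1, 1.17 for Dcn, 1.36 for Sparc, 1.13 for Pdgfra, 0.53 for Fn1, 1.02 for Serpinf1, 0.82 for Col22a1 and 1.03 for Col14a1, where the median of all genes was 1.53. It turned Fn1 to -0.22 in late against early CMDMs, to 0.30 in late CMDMs against classical monocytes and to -0.90 in resident-like macrophages against early CMDMs, where Col22a1 became -0.82 and Col16a1 -1.28. Library size alone turned Col7a1 in resident-like macrophages against classical monocytes to -0.000491. The cause was not tested.

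With each library left out in turn, members higher and lower ranged from 12 to 14 and 2 to 13 in early CMDMs against classical monocytes, 1 to 2 and 34 to 36 in late against early CMDMs, 0 to 3 and 39 to 41 in resident-like macrophages against early CMDMs, 3 to 7 and 29 to 32 in late CMDMs against classical monocytes, 1 to 3 and 12 to 25 in resident-like macrophages against late CMDMs, and 1 to 2 and 32 to 35 in resident-like macrophages against classical monocytes. The upper end of 7 came without classical monocyte replicate 2. The count with both Ly6Chi fractions above ranged from 26 to 29, that with early CMDMs above each other fraction from 5 to 7, and that with any difference from 42 to 45. Sign changes occurred for Col1a2 (-0.32 to 0.032) and Col6a1 (-0.26 to 0.13) in early CMDMs against classical monocytes, Col16a1 in resident-like macrophages against early CMDMs (-0.033 to 0.32), and Col7a1 in resident-like macrophages against classical monocytes (-0.032 to 0.48) and late CMDMs (-0.18 to 0.042), none of them called. Correlations of same-numbered libraries ran from -0.099 to 0.248, with 4 of 18 above 0.1, and 10 of 12 libraries correlated best with their own number, a hint from the data only. With the replicate block 13 members were higher and 7 lower in early CMDMs against classical monocytes, and 1 and 36 in late against early CMDMs.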
